A study of Mus musculus with 41 samples.

Results

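The 12 arrays described here carry RNA of Hardy fraction D, the small pre-B cells (5 arrays), and of Hardy fraction B, the pro-B cells (7 arrays), out of 41 arrays of 7 populations in the whole series. They were chosen by their titles alone, and every difference is given as D minus B on log2(signal + 32), where the signal is the brightness of an Affymetrix probe set as the submitters scaled it. Both fractions came from C57BL/6 mice that were wild type for Pax5. The cells were flow-sorted, the RNA was isolated with PicoPure columns and amplified with the NuGEN Ovation Pico system, and no treatment was given. Tissue, sorting gates and the animals behind each array are not in the labels. Separate animals can therefore not be assumed. The p-values reflect the scatter of arrays within the 7 populations, pooled over all 41 arrays, part or all of which may be technical. Fraction C, which lies between the 2 in the Hardy scheme, was left out of the difference. Its 5 arrays entered the shared estimate of the spread, the choice of probe sets and the filter. Their values are quoted only to place those of D and B.

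As background, a pro-B cell rearranges its immunoglobulin heavy chain gene while it depends on interleukin 7 and on the receptor tyrosine kinase Kit. A heavy chain that can be made pairs with the surrogate light chain, a placeholder made of the proteins of Igll1 and the Vpreb genes, to form the pre-B cell receptor. Signalling through that receptor drives a burst of division in large pre-B cells, after which the cells leave the cycle as small pre-B cells and rearrange their kappa and lambda light chain genes. Myc is the transcription factor that links growth signals to ribosome production and metabolism in dividing lymphoid precursors.

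The submitters had scaled every array to the same trimmed mean, but the median signal was higher in D, at 111.7 to 127.5, than in B, at 69.7 to 92.7 (exact two-sided permutation p = 0.00126). The D arrays resembled each other more closely: each had a median correlation of 0.966 to 0.970 with the others of its fraction, against 0.906 to 0.954 in B (exact two-sided permutation p = 0.00505). The median gene varied with an SD of 0.255 in D and 0.503 in B on the log2 scale. The Gapdh ratio of 3' over 5' probe sets, a measure that rises where RNA is short, was 5.53 ± 0.405 (SD, n = 5) in D and 7.53 ± 2.34 (SD, n = 7) in B (exact two-sided permutation p = 0.096). Detection calls were not used here, so a low signal is a measured value and not a statement that a gene was silent. In sorted bulk RNA, fewer cells that carry a transcript and less of that transcript per cell cannot be told apart.

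The surface markers of the Hardy scheme were read first, because they check the labels. Il2ra, the alpha chain of the IL-2 receptor (CD25) that marks small pre-B cells, had signals of 1295, 1795, 1756, 2382 and 2108 in the D arrays, against 73.2 to 617 with a median of 129 in the B arrays. Every D array lay above every B array, and the difference was 3.10 ± 0.40 (SE, limma adjusted p = 1.09e-07). Cd2, an adhesion receptor that also appears at this stage, had signals of 1534 to 2796 in D and 148 to 987 in B, a difference of 2.69 ± 0.29 (adjusted p = 2.5e-09). The highest B array for Cd2 was array 1, and it still lay below the lowest D array. On the pro-B side, Spn, the sialoglycoprotein CD43 that separates fractions A to C from D, had 4277 to 5456 in D and 9760 to 13093 in B (-1.29 ± 0.19, adjusted p = 9.15e-07). Flt3, a receptor tyrosine kinase of early lymphoid progenitors, had 10.1 to 59.1 in D and 11.7 to 1002 in B (-2.56 ± 0.43, adjusted p = 1.6e-05), and B array 4 alone kept the groups from separating. Kit was lower in D by a similar pattern (-1.54 ± 0.47, adjusted p = 0.0102), but B array 4 lay inside the D range and B array 1 below it, and the call was lost with a pseudocount of 1 and in a fit of D and B alone. Il2ra and Cd2 were thus high in the arrays labelled D, and Spn and Flt3 in those labelled B.

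Other sorting markers moved less or not detectably. Enpep, the aminopeptidase BP-1, had 196 to 493 in D and 10.2 to 193 in B (1.76 ± 0.34, adjusted p = 9.72e-05). The C arrays averaged 2015, so its level in D stood between that of B and the far higher one of C. Il7r, the interleukin 7 receptor alpha chain, had 12437 to 14744 in D and 7284 to 9854 in B (0.66 ± 0.17, adjusted p = 0.00271). Ptprc, the phosphatase CD45 whose B220 form defines all these fractions, also had no overlap (0.67 ± 0.13, adjusted p = 0.000189). Both of these calls were lost when the arrays were centred on their medians. Cd24a, the heat-stable antigen, was lower in D (-0.66 ± 0.21, adjusted p = 0.0137), but its sign turned to 0.04 with quantile normalization, and without B arrays 1 and 4 it was no longer called. Cd93, the antigen recognised by the antibody AA4.1, differed by -0.17 ± 0.20 (adjusted p = 0.548). Ly6d, a lymphoid surface antigen, rose by 0.94 ± 0.25 with overlapping arrays (adjusted p = 0.00307), a call lost with median centring (0.52). Bst1, the antigen BP-3, differed by 0.98 ± 0.36, also with overlap (adjusted p = 0.0336). That call was lost under both rescalings, with a pseudocount of 1, without B arrays 1 and 4, and without D array 2 (0.97), D array 4 (0.92), D array 5 (0.90), B array 4 (0.86) or B array 5 (0.78) alone. Ms4a1, which encodes CD20, differed by 0.94 ± 0.41 and did not pass (adjusted p = 0.0766). Of the 17 tested sorting markers, 8 rose and 4 fell, with a median of 0.68, where 15.9% of all tested genes rose and 14.8% fell. With median centring 3 rose and 4 fell.

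Over all genes, 3664 of 11953 passed the test at an adjusted p under 0.05, which is 30.7%: 1896 were higher in D (15.9%) and 1768 were lower (14.8%). Counts of called members in each list are to be read beside these shares. Of the higher ones, 1060 differed at least 2-fold, and of the lower ones, 864. D and B arrays did not overlap for 19.8% of all tested genes, and 17.8% (2127 genes) were called as well. The balance of higher and lower calls depends on the scaling: 51.7% of the calls were higher in D with the submitters' scaling, 39.7% with quantile normalization and 16.6% with median centring. The median difference of all genes was 0.08 with the submitters' scaling, and it moved by -0.16 with quantile normalization and by -0.42 with median centring.

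**Figure D1:**
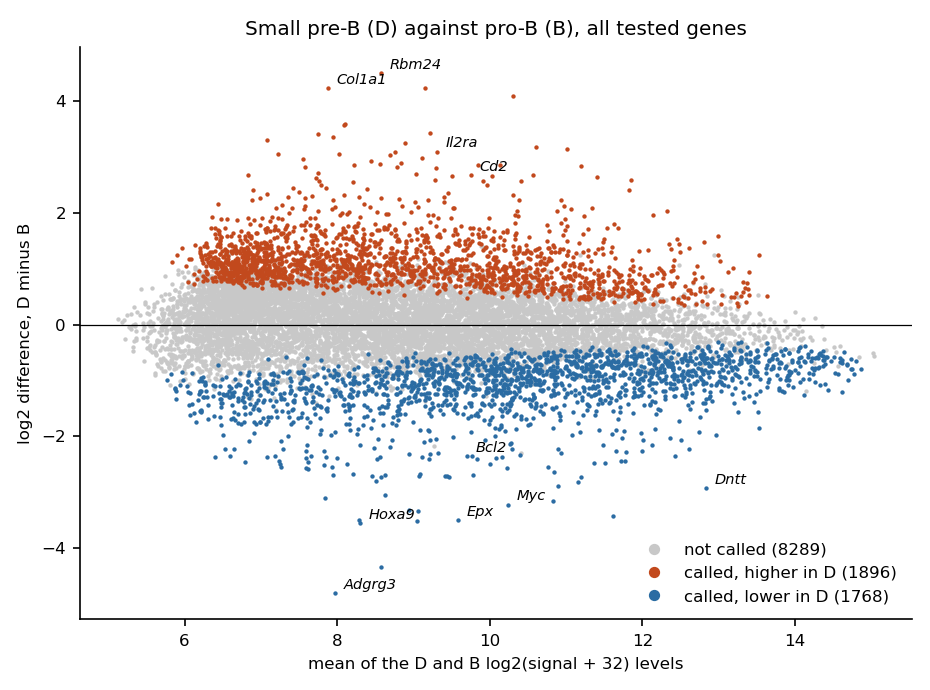
Each point is 1 of 11953 tested genes, with the mean of its D and B log2(signal + 32) levels across and the log2 difference D minus B upwards; 1896 genes called higher in D are red, 1768 called lower are blue and 8289 not called are grey. The labelled genes reach from Rbm24 at 4.51 to Adgrg3 at -4.81.

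The largest rises held genes of several unlike kinds. Rbm24, an RNA-binding splicing regulator known from heart and skeletal muscle, had signals of 1724, 1830, 1764, 2166 and 1511 in D, against 1.9 to 252 in B. The difference was 4.51 ± 0.34 (adjusted p = 6.67e-13), and 3 further probe sets of the gene were called in the same direction. Reln, the secreted glycoprotein reelin known from neuronal migration, had 4391 to 6631 in D and 1.8 to 3535 in B, where array 1 was by far the highest (4.09 ± 0.62, adjusted p = 2e-06). Ret, a receptor tyrosine kinase for neurotrophic factors of the GDNF family, had 309 to 568 in D and 0.8 to 33.9 in B (3.31 ± 0.42, adjusted p = 8.02e-08). Myzap, a protein of cardiac cell junctions, differed by 3.58 ± 0.37, and 4930426D05Rik, for which no role is given here, by 3.44 ± 0.32. These genes were taken among called genes whose D and B arrays do not overlap, so the separation of their arrays follows from the choice. The other members of the 10 largest rises were the kappa segment Igkv6-15, the collagen genes Col1a1 and Col1a2, the stefin gene Stfa3 and the myeloid gene Chil3. All of these but Igkv6-15 are given in the paragraphs on markers of other cells. Stfa3 belongs to a family of near-identical stefin A genes, so the copy that carries the signal is uncertain.

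The largest falls were led by Adgrg3, an adhesion G protein-coupled receptor, with signals of 5.8, 20.7, 45.5, 2.7 and 13.7 in D and 270 to 2985 in B (-4.81 ± 0.40, adjusted p = 2.24e-12). Its D signals lay below the pseudocount on 4 of 5 arrays, so the difference on this scale understates the ratio. Txnrd3, a thioredoxin reductase known from the testis, had 17.1 to 127 in D and 1111 to 2160 in B (-4.34 ± 0.54, adjusted p = 5.25e-08). Pik3r6, a regulatory subunit of the gamma form of phosphoinositide 3-kinase, had 41.4 to 266 in D and 822 to 2825 in B (-3.52 ± 0.54, adjusted p = 2.63e-06). Igfbp4, a secreted binding protein of insulin-like growth factors, had 461 to 776 in D and 2274 to 13236 in B (-3.15 ± 0.36, adjusted p = 6.71e-09). The falls named here were taken among called genes without overlap of arrays, so their separation follows from the choice. Hoxa9, a homeobox factor of early haematopoietic progenitors, had 35.6 to 90.6 in D and 185 to 2200 in B (-3.56 ± 0.53, adjusted p = 1.85e-06), and Ctla2a, which encodes a cysteine protease inhibitor and has a near-identical neighbour, differed by -3.49 ± 0.37. Abhd14a differed by -3.31 ± 0.61, and B array 5 stood at 16742 while the other B arrays lay between 622 and 1372. Myc and the eosinophil granule genes Prg2 and Epx complete the 10 and are taken up below.

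**Figure D2:**
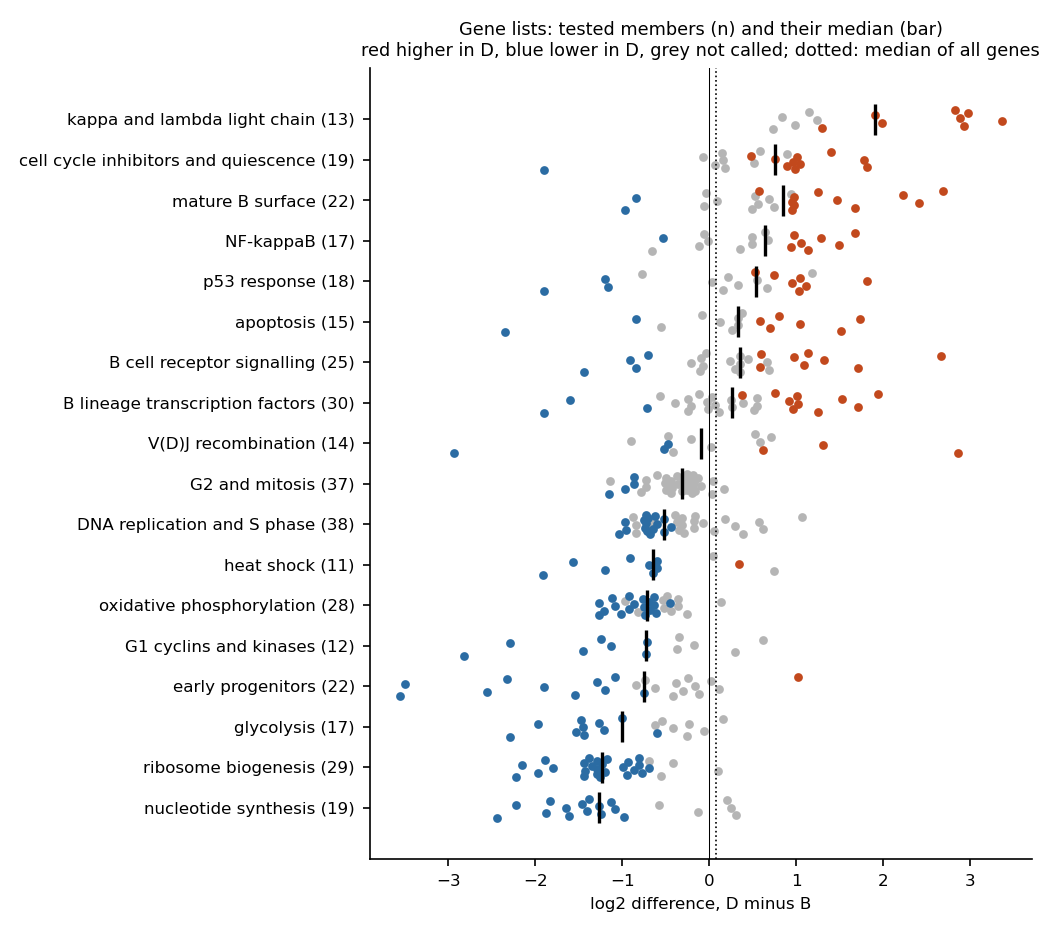
Each point is a tested member of a named gene list, with its log2 difference D minus B on the x axis; red members were called higher in D, blue ones lower and grey ones not called, the bar is the median of the list and the dotted line the median of all genes at 0.08. The medians run from 1.90 for the light chain segments to -1.27 for nucleotide synthesis.

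Of the pre-B cell receptor genes, Igll1 alone was called. Igll1, which encodes the lambda5 part of the surrogate light chain, had signals of 5074, 3337, 3643, 1237 and 2277 in D, against 9280 to 14095 in B. All D arrays lay below all B arrays (-2.07 ± 0.55, adjusted p = 0.00337), and the C arrays averaged 12430, close to B. The call was lost when the gene's probe sets were averaged (-0.70). Vpreb1, the other part of the surrogate light chain, had 9968 to 14348 in D and 21576 to 44294 in B without overlap, but its difference of -1.18 ± 0.75 did not pass the test (adjusted p = 0.237). In a fit of D and B alone, whose spread does not include the other populations, it did pass. Neither Vpreb3 (0.35 ± 0.38, adjusted p = 0.513), nor Cd79a (-0.24 ± 0.44, adjusted p = 0.714), nor Cd79b (0.29 ± 0.34, adjusted p = 0.541), the last 2 being the signalling chains of the receptor, passed. Ighm, the mu heavy chain, had 7326 to 9280 in D and 3843 to 16660 in B (0.01 ± 0.32, adjusted p = 0.984). The B arrays spread more widely than the D arrays on both sides for this gene. Of its 8 other probe sets, tested by themselves, 1 was called higher in D and none lower. In all, 1 of 6 tested members fell and none rose (16.7%, where 14.8% of all tested genes fell). The median was -0.11 and turned to 0.17 with quantile normalization.

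The promoter of Igll1 is shown because the surrogate light chain genes are known targets of EBF, the early B cell factor. It is taken from RefSeq on GRCm38.p6, chr16:16863936-16864235, minus strand, written in the direction of the gene and ending shortly after its start. The capitals mark the letters CCCNNGGG, searched on both strands.
Igll1: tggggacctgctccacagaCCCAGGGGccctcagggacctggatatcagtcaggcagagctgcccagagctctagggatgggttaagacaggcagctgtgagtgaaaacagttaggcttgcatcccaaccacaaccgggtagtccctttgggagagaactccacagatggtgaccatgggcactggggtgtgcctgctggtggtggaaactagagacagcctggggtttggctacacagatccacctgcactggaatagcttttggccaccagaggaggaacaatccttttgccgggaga
This motif is in 13.7% of all 32851 promoters of the same length, in 17.7% of those of tested genes, in 19.2% of those of genes called higher in D, in 16.4% of those of genes called lower and in 1 of the 4 promoters held for the pre-B cell receptor genes. The factor's own gene, Ebf1, had 6787 to 8218 in D and 4757 to 6826 in B and did not pass the test (0.39 ± 0.28, adjusted p = 0.303). With median centring its difference was -0.03. Of the gene's 4 other probe sets, tested by themselves, 1 was called higher in D and none lower.

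Light chain segments were higher in D as a group. Of 13 tested kappa and lambda probe sets, 8 rose and none fell, with a median of 1.90 against 0.08 for all genes. Igkv9-120 had signals of 1048, 787, 931, 927 and 954 in D, against 53.8 to 154 in B (2.93 ± 0.53, adjusted p = 3.91e-05). Igk-V21 had 860 to 1642 in D and 67.4 to 284 in B (2.89 ± 0.58, adjusted p = 0.000185). Iglv1, a lambda segment, had 649 to 2018 in D and 36.5 to 382 in B (2.82 ± 0.60, adjusted p = 0.000327). For these 3 segments, and for Igkv6-15 at 373 to 1097 in D and 2.9 to 225 in B, no D array overlapped a B array. The C arrays averaged 866 for Igkv9-120 and 1175 for Igk-V21, near the D level, but 416 for Iglv1, nearer to B. The probe set annotated as Igk had 10684 to 14556 in D and 2464 to 10374 in B, again without overlap, and its difference of 1.24 ± 0.50 missed the threshold (adjusted p = 0.0522). It passed without B array 1 (1.41) or without B array 4 (1.35). Variable segments are near-identical copies, so which segment a probe set reads is uncertain.

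The recombination machinery moved in part. Dntt, the terminal transferase that adds untemplated bases to heavy chain joints, had signals of 3566, 3510, 2106, 1898 and 2419 in D, against 17266 to 23939 in B. This difference, -2.93 ± 0.46 (adjusted p = 5.79e-06), was the largest fall of the list, and no array overlapped. Polm, the related polymerase mu that fills in bases at light chain joints, went the other way, with 615 to 873 in D and 12.1 to 537 in B (2.86 ± 0.44, adjusted p = 3.08e-06). Lig4, the ligase of end joining, had 3570 to 3912 in D and 701 to 2398 in B (1.30 ± 0.30, adjusted p = 0.000827). Both rises separated the arrays completely. Rag1, which cuts the segments together with Rag2, had 12698 to 15270 in D and 5648 to 15716 in B (0.53 ± 0.30, adjusted p = 0.191). Rag2 had 2531 to 2749 in D and 2429 to 4273 in B (-0.41 ± 0.29, adjusted p = 0.294). Neither passed, although Rag1 did with quantile normalization (0.95) and Rag2 with median centring (-0.83). Xrcc6, the Ku70 end-binding subunit, differed by 0.62 ± 0.23 (adjusted p = 0.0386), a call that was lost without any of 8 single arrays, among them each D array. Hmgb2, a DNA-bending cofactor of the recombinase, differed by -0.47 ± 0.13 (adjusted p = 0.00626) and Trp53bp1, a DNA break response protein, by -0.52 ± 0.15 (adjusted p = 0.00839). The difference of Hmgb2 turned to 0.05 with quantile normalization, and that of Trp53bp1 to 0.27 with the mean of its probe sets. Xrcc5, which encodes the other Ku subunit, differed by -0.90 ± 0.40 (adjusted p = 0.0845) and Prkdc, the kinase that Ku recruits, by -0.48 ± 0.33 (adjusted p = 0.284), so neither passed. The list counted 3 rises and 3 falls among 14 (42.9% called, where 30.7% of all tested genes were called). Its median was -0.09.

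Among genes tied to interleukin 7 and growth, Myc had the smallest adjusted p of all 11953 genes. Its signals were 617, 322, 463, 203 and 334 in D and 2732, 5162, 6078, 3793, 2679, 3276 and 3110 in B. The lowest B array lay far above the highest D array, and the difference was -3.22 ± 0.22 (adjusted p = 3.01e-14). The C arrays averaged 2737. Its relative Mycn was low on all arrays, at 111 to 204 in D and 21.7 to 157 in B (1.02 ± 0.35, adjusted p = 0.0227), a call lost without B array 4 (0.89), without D array 1 (0.93), without D array 2 (0.97) and under both rescalings. Bcl2, the survival protein that interleukin 7 sustains, had 263 to 397 in D and 1154 to 3075 in B (-2.35 ± 0.26, adjusted p = 3.14e-09). Stat5a, a transcription factor below the receptor, had 882 to 1154 in D and 1300 to 2205 in B (-0.80 ± 0.22, adjusted p = 0.00451). The other called rises besides Il7r were Pim2, a survival kinase, with 295 to 476 in D and 111 to 349 in B (0.99 ± 0.33, adjusted p = 0.0175), and Mcl1, a survival protein of the Bcl-2 family, with 11307 to 13953 in D and 6918 to 9826 in B (0.59 ± 0.21, adjusted p = 0.0302). The Pim2 call was lost under both rescalings, without D array 5 (0.90) and without B arrays 1 and 4. The Mcl1 call was lost with median centring (0.17), with the replicate block (0.43, adjusted p = 0.0971) and without D array 2 (0.59), 3 (0.58) or 4 (0.55) or B array 2 (0.55) or 3 (0.56) alone. The list of 18 tested genes had 4 rises and 5 falls (50% called, where 30.7% of all tested genes were called). Its median was -0.11, and with median centring it had no rise and 7 falls. Without single arrays the rises numbered 2 to 5.

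D-type cyclins and their kinases were lower in D. Ccnd2, cyclin D2, had signals of 1386, 753, 1719, 556 and 378 in D, against 4226 to 9837 in B (-2.82 ± 0.24, adjusted p = 6.44e-12). Cdk6, one of its partner kinases, had 1239 to 2149 in D and 6987 to 9978 in B (-2.29 ± 0.20, adjusted p = 1.34e-11). Cdc25a, the phosphatase that activates cyclin-dependent kinases, had 453 to 709 in D and 947 to 6182 in B (-1.45 ± 0.32, adjusted p = 0.000451). None of these overlapped, and the top value for Cdc25a was B array 1. Cdk4 fell by 1.25 ± 0.20 and Ccnd3, the cyclin required in pre-B cells, by 1.13 ± 0.23, though the Ccnd3 call was lost with the mean of its probe sets (-0.27). Of 12 tested members of the list, 7 fell and none rose, with a median of -0.72.

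Inhibitors of the cycle and genes of resting cells were mostly higher in D: 10 of 19 rose and 1 fell, with a median of 0.76. Btg2, an antiproliferative gene, had 1787, 2455, 1992, 3012 and 2903 in D, against 353 to 1311 in B (1.82 ± 0.27, adjusted p = 1.83e-06). Rb1, the retinoblastoma protein that holds E2F factors inactive, had 1962 to 2362 in D and 467 to 1075 in B (1.40 ± 0.19, adjusted p = 3.17e-07). Cdkn1b, the inhibitor p27, had 2542 to 4583 in D and 1094 to 2258 in B (1.01 ± 0.22, adjusted p = 0.000493). Together with Tob1, a relative of Btg2 (1.78 ± 0.43, adjusted p = 0.00141), these genes separated the fractions without overlap. Cdkn2d (1.04 ± 0.25), Ccng2 (0.89 ± 0.21) and Btg1 (0.76 ± 0.20) also rose, and these 3 calls were lost with median centring, which left 5 rises and 2 falls in the list. Pnrc1, a nuclear receptor coregulator, rose by 0.97 ± 0.19 (adjusted p = 9.15e-05). Cdkn2c, the inhibitor p18, differed by 0.58 ± 0.33 and did not pass (adjusted p = 0.184). Cdkn1a, the inhibitor p21, was the member that fell, with 385 to 958 in D and 1919 to 2944 in B (-1.90 ± 0.48, adjusted p = 0.00226).

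**Figure D3:**
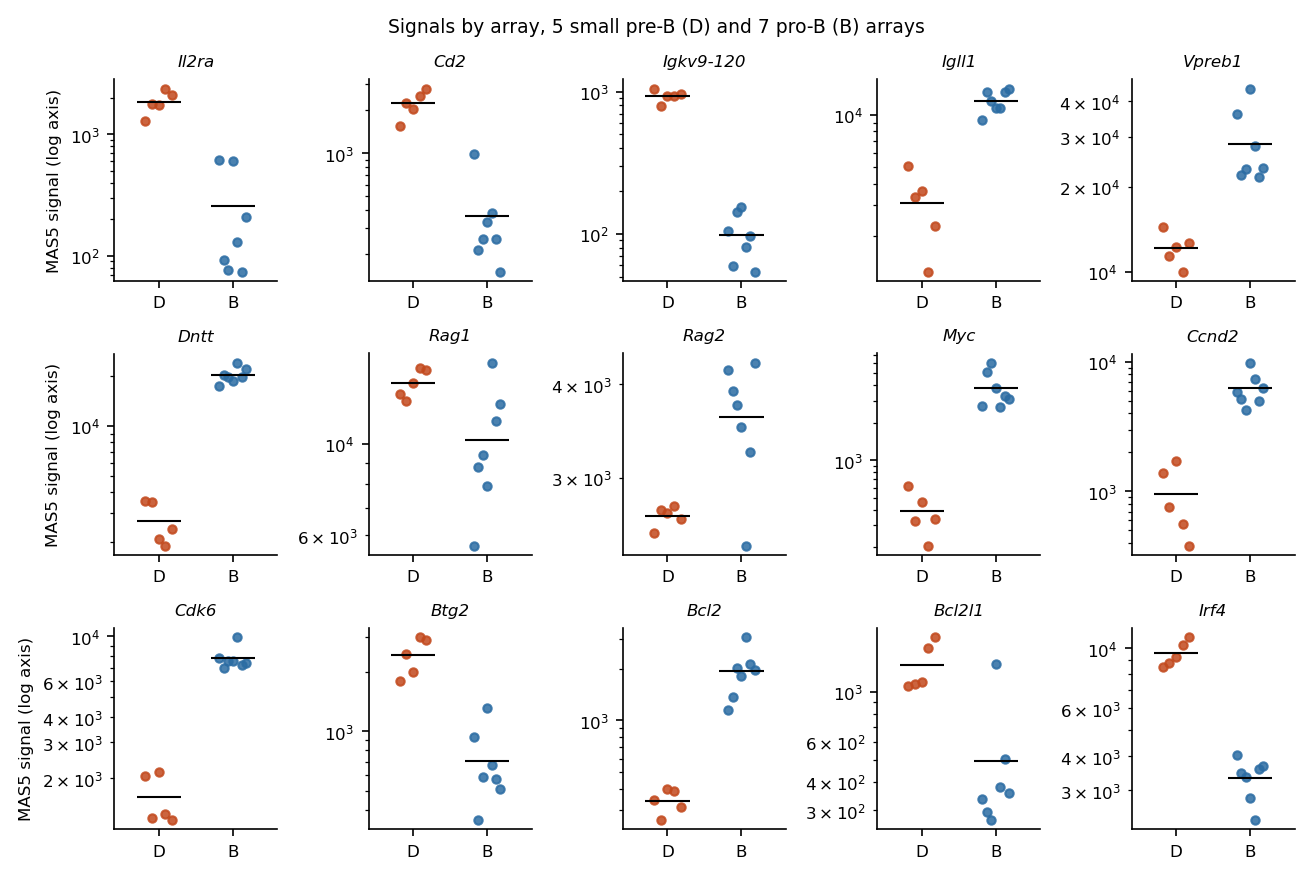
MAS5 signal on a log axis for 15 genes, 1 point per array, with the 5 D arrays left of the 7 B arrays and a line at the mean of the signals of each group. Myc, Ccnd2, Cdk6, Dntt and Bcl2 lie lower in all D arrays than in all B arrays, Il2ra, Cd2, Igkv9-120, Btg2 and Irf4 higher in all, and the ranges overlap for Rag1, Rag2 and Bcl2l1.

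Genes of DNA replication were lower in D in part: 16 of 38 tested members fell and none rose, with a median of -0.52. Fen1, the flap nuclease of lagging strand synthesis, had 7356 to 9294 in D and 11292 to 26775 in B (-0.97 ± 0.23, adjusted p = 0.00116). Mcm7, a subunit of the replicative helicase, had 6574 to 9254 in D and 11508 to 19760 in B (-0.96 ± 0.18, adjusted p = 6.12e-05). These ranges did not meet. Pold1, the catalytic subunit of polymerase delta, had 4743 to 5675 in D and 3514 to 24641 in B (-1.04 ± 0.34, adjusted p = 0.016), and the call was lost without B array 4 (-0.84). With quantile normalization the list had 3 rises and 12 falls, with median centring none and 27. Genes of mitosis differed less. Of 37 tested members, 4 fell and none rose (10.8%, where 14.8% of all tested genes fell), with a median of -0.31. Without B arrays 1 and 4, 1 fall was left. Leaving out single arrays gave 2 to 6 falls, and a fit of D and B alone gave 11. Espl1, separase, was the largest of the falls, with 507 to 824 in D and 724 to 3736 in B (-1.15 ± 0.33, adjusted p = 0.00722), and it was one of the calls lost without B arrays 1 and 4 (-0.76). Mki67, the Ki-67 antigen of cycling cells, named after its values were seen, had 18399 to 21585 in D and 21053 to 43613 in B (-0.50 ± 0.21, adjusted p = 0.0672). It was among the brighter genes in both fractions, and its difference was 0.17 with quantile normalization. In C, Mki67 averaged 12630, below both.

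The promoters of Pold1 and Mcm7 are shown because E2F factors are known to bind the promoters of replication genes, and they were chosen as called members that hold the letters. Both are from RefSeq on GRCm38.p6, Pold1 at chr7:44548766-44549065 and Mcm7 at chr5:138171834-138172133, each on the minus strand and written in the direction of the gene. The capitals mark TTTCCCGC or TTTGGCGC, searched on both strands, so that the reverse complement may be the one printed.
Pold1: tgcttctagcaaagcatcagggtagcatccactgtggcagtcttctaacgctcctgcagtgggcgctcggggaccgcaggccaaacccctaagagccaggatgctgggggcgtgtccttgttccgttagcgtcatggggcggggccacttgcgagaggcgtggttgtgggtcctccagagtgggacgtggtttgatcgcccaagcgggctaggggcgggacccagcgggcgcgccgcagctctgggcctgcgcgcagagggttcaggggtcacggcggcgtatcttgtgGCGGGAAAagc
Mcm7: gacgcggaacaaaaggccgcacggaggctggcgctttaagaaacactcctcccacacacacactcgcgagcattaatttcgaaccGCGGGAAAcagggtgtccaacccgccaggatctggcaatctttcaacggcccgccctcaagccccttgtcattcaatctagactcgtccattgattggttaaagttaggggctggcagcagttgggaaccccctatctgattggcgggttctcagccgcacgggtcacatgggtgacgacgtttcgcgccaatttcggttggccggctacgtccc
One of these letters' runs was found in 11 of 38 promoters of the replication list (28.9%), in 0 of 32 promoters of the mitosis list, in 2.89% of the promoters of all tested genes and in 1.56% of all promoters. In other lists such a run was in 3 of 27 promoters of ribosome biogenesis (11.1%) and in 2 of 21 of nucleotide synthesis (9.52%). The glycolysis list had it in 0 of 25, the cycle inhibitor list in 0 of 22 and the pre-B cell receptor list in 0 of 4. Among called genes it was in 4.25% of the promoters of those lower in D and in 1.52% of those higher in D. These shares describe the letters in this window and not binding.

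The lists with the lowest medians were those of ribosome and nucleotide production. Of 29 tested ribosome biogenesis genes, 25 fell and none rose, with a median of -1.23. Gnl3, the nucleolar protein nucleostemin, had 788, 912, 1236, 690 and 719 in D, against 3442 to 4962 in B (-2.22 ± 0.23, adjusted p = 8.99e-10). Dkc1, the pseudouridine synthase dyskerin, had 1475 to 3842 in D and 6460 to 18621 in B (-2.16 ± 0.23, adjusted p = 1.57e-09). Fbl, the ribosomal RNA methylase fibrillarin, had 788 to 1514 in D and 3043 to 6560 in B (-1.97 ± 0.22, adjusted p = 6.14e-09). No D array reached a B array for any of the 3. The mean level of the whole list, on the log2 scale, was 10.01 to 10.10 in the D arrays and 11.05 to 11.39 in the B arrays. The count stayed between 23 and 26 without any single array, at 27 with quantile normalization and at 21 when probe sets were averaged per gene.

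The promoters of Wdr43 and Pes1, both of which encode ribosome assembly factors, are shown because Myc is known to bind the letters CACGTG, called an E-box. They were chosen after their values were seen, as called members whose window holds these letters. Wdr43 had 983 to 1406 in D and 2193 to 4418 in B (-1.45 ± 0.18, adjusted p = 8.44e-08). Pes1 had 822 to 1169 in D and 1937 to 2917 in B (-1.29 ± 0.17, adjusted p = 1.03e-07). Both are on the plus strand of GRCm38.p6 in RefSeq, Wdr43 at chr17:71615965-71616264 and Pes1 at chr11:3963725-3964024, with the E-box in capitals.
Wdr43: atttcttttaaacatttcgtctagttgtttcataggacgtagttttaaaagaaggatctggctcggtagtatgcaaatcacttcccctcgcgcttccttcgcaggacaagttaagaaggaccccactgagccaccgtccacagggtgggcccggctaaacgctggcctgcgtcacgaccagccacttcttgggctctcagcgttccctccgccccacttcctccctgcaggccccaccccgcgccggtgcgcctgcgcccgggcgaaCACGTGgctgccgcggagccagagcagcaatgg
Pes1: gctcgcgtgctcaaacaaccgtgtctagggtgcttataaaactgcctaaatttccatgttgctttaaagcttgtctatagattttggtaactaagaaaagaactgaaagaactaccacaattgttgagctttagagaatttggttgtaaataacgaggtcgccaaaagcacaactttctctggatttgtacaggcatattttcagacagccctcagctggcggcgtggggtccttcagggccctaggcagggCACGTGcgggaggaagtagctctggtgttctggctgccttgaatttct
The E-box was in 4 of 27 promoters of the ribosome biogenesis list (14.8%) and in 4 of 21 of the nucleotide synthesis list (19.0%), against 9.84% of the promoters of tested genes and 7.15% of all promoters. The 4 promoters of the nucleotide synthesis list belong to 3 genes. In other lists the E-box was in 3 of 25 promoters of glycolysis, 4 of 38 of replication and 3 of 32 of mitosis. The cycle inhibitor list had it in 2 of 22 and the pre-B cell receptor list in 0 of 4. It was in 12.7% of the promoters of genes called lower in D and in 8.32% of those called higher. These shares describe the letters in this window and not binding. The part of Myc in these falls was not tested.

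Nucleotide synthesis fell in 14 of 19 tested genes and rose in none, with a median of -1.27. Mthfd1, an enzyme of one-carbon metabolism that feeds purine synthesis, had 959 to 1963 in D and 5778 to 11908 in B (-2.44 ± 0.28, adjusted p = 7.39e-09). Shmt2, the mitochondrial enzyme that takes one-carbon units from serine, had 478 to 606 in D and 2300 to 3378 in B (-2.22 ± 0.24, adjusted p = 1.87e-09). Impdh1, which commits purines to guanine nucleotides, was dimmer but moved alike, with 58.0 to 152 in D and 284 to 662 in B (-1.88 ± 0.30, adjusted p = 5.6e-06). The count was 14 without each single array in turn.

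Energy metabolism followed in the same direction. Of 17 tested glycolysis genes, 10 fell and none rose, with a median of -1.002. Ldha, lactate dehydrogenase A, had 2961 to 5362 in D and 14514 to 16867 in B (-1.97 ± 0.20, adjusted p = 6.67e-10). Slc2a3, the glucose transporter GLUT3, had 197 to 296 in D and 322 to 2474 in B, where array 1 was lowest (-2.30 ± 0.49, adjusted p = 0.000341). Pdk1, which limits entry of pyruvate into mitochondria, fell by 1.54 ± 0.33 (adjusted p = 0.000356). These fractions did not overlap for the 3 genes. In oxidative phosphorylation 18 of 28 fell and none rose, with a median of -0.72. Ndufv2, a subunit of complex I, had 2115 to 2802 in D and 4514 to 7180 in B (-1.26 ± 0.16, adjusted p = 8.53e-08). Sdhc, a subunit of complex II, differed by -1.27 ± 0.38 with overlapping arrays, and its call was lost without B arrays 1 and 4 (-0.98). With quantile normalization 13 of the 28 fell. By mean level, the oxidative phosphorylation list stood at 11.65 to 11.82 in D and 12.33 to 12.60 in B.

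**Figure D4:**
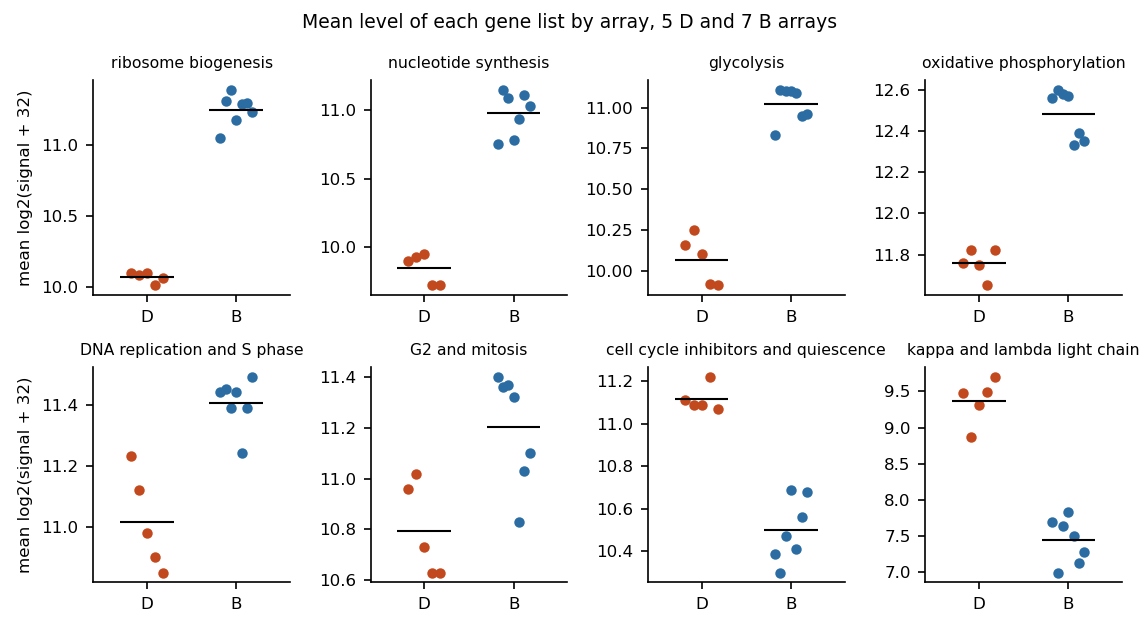
Mean log2(signal + 32) of the tested members of 8 gene lists, 1 point per array, with the 5 D arrays left of the 7 B arrays and a line at the mean of each group. Ribosome biogenesis lies at 10.01 to 10.10 in D and 11.05 to 11.39 in B, whereas the mitosis list overlaps, at 10.63 to 11.02 in D and 10.83 to 11.40 in B.

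Of 11 tested heat shock genes, 8 fell and 1 rose, with a median of -0.65. Hspe1 and Hspd1, which together form the folding chamber of mitochondria, had 3036 to 4267 in D and 10021 to 17526 in B (-1.91 ± 0.18, adjusted p = 9.7e-11), and 4775 to 6752 in D and 15370 to 20381 in B (-1.57 ± 0.16, adjusted p = 3.74e-10). Hsph1, a cytosolic relative of Hsp70, fell by 1.20 ± 0.21 (adjusted p = 2.97e-05). With quantile normalization 5 fell and 2 rose. In cholesterol synthesis 6 of 20 fell and none rose (30%, where 14.8% of all tested genes fell). The median was -0.33, and with the mean of probe sets 4 fell and 1 rose. Sqle, squalene epoxidase, fell by 1.27 ± 0.30 (adjusted p = 0.00109), with B array 1 inside the D range. Hmgcs1, which makes the precursor HMG-CoA, had 2044 to 2706 in D and 3701 to 7278 in B (-1.17 ± 0.23, adjusted p = 0.000161), a call lost with the mean of its probe sets (-0.22).

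Among 30 tested transcription factors of the B lineage, 10 rose and 3 fell, with a median of 0.26. That is 43.3% called, where 30.7% of all tested genes were called. With median centring 4 rose and 8 fell, and the median was -0.16, so no direction is given for the list as a whole. Irf4, which promotes light chain recombination and exit from the cycle, had 8501, 8827, 9261, 10251 and 11015 in D, against 2321 to 4046 in B (1.53 ± 0.30, adjusted p = 0.000148). Spib, a relative of PU.1 of the Ets family, had 3996 to 5417 in D and 531 to 2558 in B (1.94 ± 0.25, adjusted p = 1.35e-07). Id2, which binds E proteins and keeps them from DNA, had 352 to 711 in D and 14.1 to 260 in B (1.71 ± 0.34, adjusted p = 0.000134). All 3 separated the arrays. On the other side, Erg, an Ets factor of stem cells and early B precursors, had 1324 to 2382 in D and 3606 to 9626 in B (-1.90 ± 0.42, adjusted p = 0.000622). Lef1, a nuclear partner of beta-catenin, had 2406 to 3011 in D and 3784 to 11767 in B (-1.60 ± 0.26, adjusted p = 6.17e-06). Pax5, the factor of B lineage commitment, had 1341 to 1996 in D and 893 to 1473 in B and did not pass (0.55 ± 0.32, adjusted p = 0.192). Its direction turned with the mean of its probe sets (-0.16), and its 1 other probe set, tested by itself, was called lower in D (-0.87 ± 0.31, adjusted p = 0.0273).

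B cell receptor signalling genes were mixed, with 8 rises and 4 falls among 25 (48% called, where 30.7% of all tested genes were called). With median centring 4 rose and 5 fell. Rasgrp1, an activator of Ras in lymphocytes, had 2480 to 2945 in D and 261 to 1115 in B, where array 1 was far above the other arrays (2.66 ± 0.34, adjusted p = 9.08e-08). Its relative Rasgrp3 had 613 to 809 in D and 12.9 to 603 in B (1.71 ± 0.44, adjusted p = 0.00267). Cd72, a B cell coreceptor, had 4938 to 7266 in D and 1317 to 5884 in B, with B arrays 1 and 4 inside the D range (1.32 ± 0.25, adjusted p = 9.41e-05). Fyn, a Src family kinase, ran against these with 309 to 428 in D and 832 to 1446 in B (-1.44 ± 0.17, adjusted p = 1.19e-08). Cd81, a tetraspanin of the B cell surface, fell by 0.84 ± 0.18 (adjusted p = 0.000376). In the list of phosphoinositide 3-kinase, Akt and Foxo genes, 2 of 19 rose and none fell (median 0.26). That is 10.5%, where 15.9% of all tested genes rose. With quantile normalization 4 rose, and with median centring none rose and 1 fell.

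Surface genes of mature B cells were higher in 11 of 22 and lower in 2, with a median of 0.85. Fcrla, an intracellular Fc receptor-like protein of B cells, had 7573 to 8746 in D and 806 to 4094 in B (2.41 ± 0.47, adjusted p = 0.000104). Cd55, decay-accelerating factor, had 3619 to 5726 in D and 305 to 2248 in B (2.23 ± 0.45, adjusted p = 0.000185). B arrays 1 and 4 were the highest of their fraction for both genes and still lay below every D array. Fcrl1, a receptor of B cells that resembles Fc receptors, had 214 to 838 in D and 68.1 to 177 in B (1.68 ± 0.30, adjusted p = 4.05e-05). Cd52, a small lymphocyte surface glycoprotein, was among the falls (-0.84 ± 0.20, adjusted p = 0.00102). The number of rises was 7 with quantile normalization and 5 with median centring, and 8 to 12 without single arrays. MHC class II genes had 3 rises and 1 fall among 9 (44.4% called, where 30.7% of all tested genes were called). The rises numbered 1 to 3 without single arrays, and none was left with median centring.

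Homing and adhesion genes included changes in both directions, with 4 rises and 3 falls among 22 and a median of -0.02. That is 31.8% called, where 30.7% of all tested genes were called. Cnr2, the cannabinoid receptor that helps retain immature B cells in marrow sinusoids, had 211 to 553 in D and 17.3 to 139 in B (1.80 ± 0.29, adjusted p = 9.05e-06). Ccr7, a chemokine receptor for lymph node entry, had 287 to 677 in D and 5.1 to 311 in B, overlapping by 1 array of each fraction (1.53 ± 0.36, adjusted p = 0.00108). S1pr1, the receptor that guides exit into blood, rose by 1.30 ± 0.36 (adjusted p = 0.00466), a call lost with median centring. Itgal, the alpha chain of LFA-1, fell, with 389 to 592 in D and 926 to 1691 in B (-1.47 ± 0.19, adjusted p = 6.29e-08). Itgb1, the integrin chain that pairs with alpha4 to bind stroma, also fell (-1.17 ± 0.30, adjusted p = 0.00224), a call lost with the mean of its probe sets (-0.25). The ranges of Itgal did not meet, those of Itgb1 did.

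In the NF-kappaB list 7 of 17 rose and 1 fell, with a median of 0.64. That is 47.1% called, where 30.7% of all tested genes were called. Birc3, an inhibitor of apoptosis that is also an NF-kappaB target, had 2338 to 3773 in D and 741 to 1307 in B (1.67 ± 0.19, adjusted p = 1.1e-08). Nfkbiz, a nuclear IkappaB protein, had 2938 to 4147 in D and 510 to 3764 in B, where arrays 5 to 7 stood above the others (1.49 ± 0.37, adjusted p = 0.00173). Tnfaip3, the feedback inhibitor A20, rose by 1.29 ± 0.39 (adjusted p = 0.01), and that call was lost with median centring and without B arrays 1 and 4. Nfkbia, the inhibitor IkappaB-alpha and a target of the pathway, had 11122 to 13186 in D and 4109 to 9462 in B (1.14 ± 0.20, adjusted p = 3.42e-05). Ikbkb, a kinase that marks IkappaB for destruction, was the fall (-0.53 ± 0.17, adjusted p = 0.0172), and its sign turned to 0.19 with the mean of its probe sets. That call was lost without B arrays 1 and 4 (-0.42), and of its 4 other probe sets, tested by themselves, none was called lower and 1 was called higher (0.73 ± 0.28, adjusted p = 0.0449). The count of rises was 7 without each single array in turn and 4 with median centring.

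Genes of cell survival moved in both directions. Bcl2 fell, as given above, while Bcl2l1, which encodes Bcl-xL, had 1057 to 1749 in D and 271 to 1329 in B (1.52 ± 0.36, adjusted p = 0.00129). B array 4 was the 1 B array inside the D range for Bcl2l1. Bmf, a BH3-only protein that promotes death, had 893 to 1074 in D and 158 to 510 in B (1.74 ± 0.30, adjusted p = 2.63e-05). In all, 6 of 15 apoptosis genes rose and 2 fell (53.3% called), with a median of 0.34 that was -0.08 with median centring. Of 18 tested p53 target genes, 7 rose and 3 fell (55.6% called, where 30.7% of all tested genes were called). Their median was 0.53, and 1 rose and 4 fell with median centring. Without D array 1, or without D array 5, the rises numbered 4. Gadd45a, a damage-inducible growth arrest gene, rose by 1.12 ± 0.31 (adjusted p = 0.00467), while Cdkn1a fell as described. The call for Gadd45a was lost with median centring.

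Genes of early progenitors were lower in D in 10 of 22 and higher in 1 (50% called), with a median of -0.74. Hoxa9, Ctla2a and Flt3 led the falls. Egfl7, a secreted vascular factor, had 191 to 337 in D and 526 to 2321 in B (-2.32 ± 0.31, adjusted p = 1.48e-07), and the 1 rise was Mycn. The mean level of the list was 8.56 to 8.72 in D and 8.76 to 10.51 in B, where array 5 was highest and array 1 lowest. Of 14 tested genes that are deleted or mutated in hypodiploid acute lymphoblastic leukaemia, which the submitters' design text mentions, 4 rose and 3 fell. That is 50% called, where 30.7% of all tested genes were called, and with median centring 1 rose and 5 fell. Rb1 rose (given above), as did Ikzf3, the Ikaros family factor Aiolos (1.25 ± 0.32, adjusted p = 0.00232), and Crebbp, a histone acetyltransferase (0.83 ± 0.19, adjusted p = 0.000844). The calls of Ikzf3 and Crebbp were lost with median centring. Etv6, an Ets repressor, had 433 to 581 in D and 634 to 1745 in B (-1.04 ± 0.26, adjusted p = 0.00184), and Pag1, an adaptor that restrains Src kinases, fell by 1.06 ± 0.27 (adjusted p = 0.00237). Flt3 was the third fall.

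The interferon response did not move as a group. Of 20 tested genes 4 rose and 1 fell, which is 25% called, where 30.7% of all tested genes were called. The median was 0.05 beside 0.08 for all genes, and 3 rose and 5 fell with quantile normalization. The mean level of the list was 7.16 to 7.49 in D and 6.68 to 7.40 in B, while the C arrays stood at 8.30 to 9.27. Ddx58, the RNA sensor RIG-I, had 430 to 642 in D and 85.6 to 290 in B (1.55 ± 0.30, adjusted p = 0.000101). Stat2, part of the factor that interferon activates, had 448 to 527 in D and 74.8 to 236 in B (1.40 ± 0.26, adjusted p = 6.68e-05). These 2 genes separated the arrays while most of the list did not pass. Rsad2, the antiviral protein viperin, had 71.4 to 787 in D and 8.4 to 734 in B (1.79 ± 0.66, adjusted p = 0.0337), and the call was lost without any of 7 single arrays. Of 22 immediate early genes 3 rose and 2 fell, which is 22.7% called, where 30.7% of all tested genes were called. Myc was one of the falls, and without single arrays 2 to 6 rose. Klf4, a factor that restrains division in B cells, rose, with 3094 to 4928 in D and 248 to 2768 in B (1.77 ± 0.42, adjusted p = 0.00112).

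Markers of other cell types also differed between D and B. Of 20 tested myeloid markers, 8 were higher in D, 1 was lower and 11 did not pass, with a median of 0.82. That is 45% called, where 30.7% of all tested genes were called. The counts were 8 and 1 with quantile normalization and 7 and 1 with median centring. The mean level of the list was 8.55 to 9.08 in D and 7.13 to 8.97 in B, where array 5 was highest, while the C arrays stood at 10.25 to 11.10. S100a8, an abundant calcium-binding protein of neutrophils, had 5940, 5973, 7148, 7155 and 4697 in D, against 343 to 2736 in B (3.15 ± 0.45, adjusted p = 7.85e-07). Camp, the antimicrobial peptide of neutrophil granules, had 1206 to 1887 in D and 48.1 to 519 in B (3.26 ± 0.54, adjusted p = 9.71e-06). Chil3, a chitinase-like protein, had 737 to 1193 in D and 1.3 to 137 in B (3.60 ± 0.50, adjusted p = 4.16e-07). Lcn2, a neutrophil lipocalin, rose by 2.68 ± 0.52 and S100a9 by 1.97 ± 0.47. Every D array lay above every B array for these 5 genes. They were picked among the called rises of the list, and 19.8% of all tested genes had no overlap, so nothing is read from that. Stfa3, which is not on the myeloid list, had 1832 to 3308 in D and 13.7 to 857 in B. Its C mean was 71.1, below the B mean of 193, unlike Chil3, whose C mean was 5130. Mpo, a marker of earlier granulocyte precursors, had 1083 to 1980 in D and 401 to 8259 in B (-0.42 ± 0.42, adjusted p = 0.472), and Lyz2, lysozyme, had 1022 to 1431 in D and 264 to 2078 in B (0.69 ± 0.45, adjusted p = 0.25). The part of myeloid transcripts in the other rises was not tested.

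The 4 eosinophil genes given here ran the other way and were high in B. No list of eosinophil genes was drawn up, so other genes of these cells were not counted. Prg2, the major basic protein of their granules, had 354, 1254, 1407, 1524 and 690 in D, against 5989 to 19331 in B (-3.43 ± 0.57, adjusted p = 1.29e-05). Epx, eosinophil peroxidase, had 58.4 to 415 in D and 778 to 10970 in B (-3.50 ± 0.77, adjusted p = 0.000549). Ear3, an eosinophil-associated ribonuclease with near-identical copies, and Siglecf, a lectin of eosinophils, were named after their values were seen and differed by -2.67 ± 0.56 and -2.69 ± 0.48. All 4 genes separated the fractions, but they were picked among the falls, and Prg2 and Epx among falls without overlap, so nothing is read from that. B array 3 was the highest for Prg2, Epx and Ear3. Their part in the other falls was not tested.

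Stromal, erythroid and lymphoid markers completed the check. Of 8 tested stromal markers, 4 rose and none fell (50%, where 15.9% of all tested genes rose). The mean level of these markers was 7.42 to 8.40 in D and 6.18 to 6.75 in B. Col1a1, a chain of type I collagen, had 1207, 430, 1115, 1145 and 1390 in D, against 3.3 to 127 in B (4.23 ± 0.77, adjusted p = 4.77e-05), and Col1a2, the other chain, had 177 to 1408 in D and 5.4 to 74.1 in B (3.42 ± 0.79, adjusted p = 0.000962). D array 2 was the lowest of its fraction for both. Sparc, a matrix protein, moved with them (2.44 ± 0.60, adjusted p = 0.00163). Of 8 erythroid markers, Slc4a1, the band 3 anion exchanger, rose to 718 to 1113 in D, against 56.9 to 225 in B (2.88 ± 0.53, adjusted p = 5.93e-05), and Alas2, of haem synthesis, rose by 1.44 ± 0.46 (adjusted p = 0.0141), a call lost without D array 2 (1.23) and under both rescalings. The other 6 did not pass, so 25% of the list was called, where 30.7% of all tested genes were called. The median of the list was -0.21. Without B arrays 1 and 4 it was -0.80, with 2 rises and 2 falls. The list's level overlapped, at 8.60 to 9.11 in D and 7.52 to 10.11 in B. Of 19 NK and T cell markers 3 fell (15.8%), where 14.8% of all tested genes fell. Gzma, granzyme A, led them, with 3.0 to 94.2 in D and 49.0 to 616 in B (-2.46 ± 0.49, adjusted p = 0.000164). The T cell receptor chain gene Cd3e was at 57.1 or lower in D and 80.6 or lower in B, and the NK receptor gene Ncr1 at 45.0 or lower and 45.7 or lower.

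Plasmacytoid dendritic markers had 2 rises and 3 falls among 13 (38.5% called) and plasma cell markers 2 and 2 among 11 (36.4% called). Of all tested genes 30.7% were called. The rises include Spib in the plasmacytoid dendritic list and Irf4 in the plasma cell list, both also counted among the B lineage factors above. Siglech, the lectin that defines plasmacytoid dendritic cells, was low, at 9.0 to 27.8 in D and 27.5 to 132 in B (-1.30 ± 0.37, adjusted p = 0.00644). Jchain, the joining chain of secreted antibody, had 2.5 to 57.0 in D and 50.2 to 1478 in B (-2.35 ± 0.68, adjusted p = 0.00701), while Prdm1, a factor of plasma cells, had 200 to 286 in D and 20.4 to 95.4 in B (1.64 ± 0.34, adjusted p = 0.000269). None of the 3 tested megakaryocyte markers passed. The part of these transcripts in the results was not tested.

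**Figure D5:**
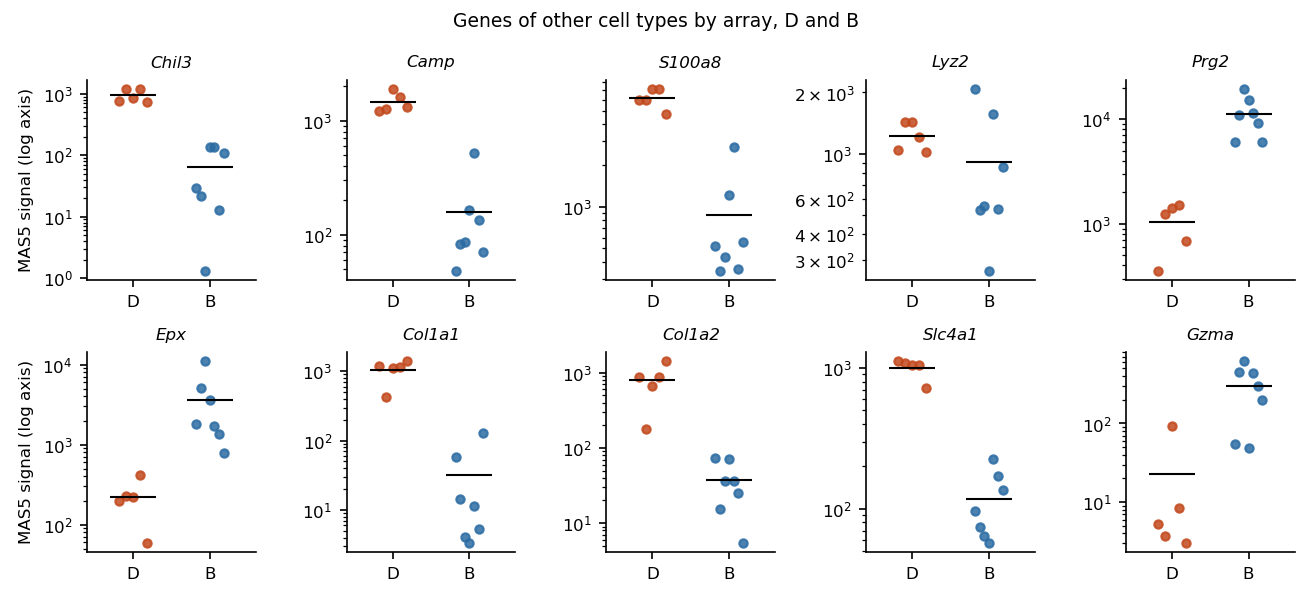
MAS5 signal on a log axis for 10 genes of other cell types, 1 point per array, with the 5 D arrays left of the 7 B arrays and a line at the mean of each group. Chil3, Camp, S100a8, Col1a1, Col1a2 and Slc4a1 lie higher in every D array than in every B array, Prg2 and Epx lower in every D array, and Lyz2 and Gzma overlap.

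The mean of fraction C was set against the means of both fractions. Of the 1896 genes called higher in D, the mean of the C arrays lay between the D and B means for 1389 (73.3%), above both for 270 and below both for 237. Of the 1768 genes called lower in D, it lay between them for 1075 (60.8%), above both for 436 and below both for 257. Over all tested genes C lay between for 38.8%, above both for 40.4% and below both for 20.8%. Called genes have a wider gap between D and B than other genes, so a larger share between them follows from how they were chosen, and nothing is read from it. Myc and Ccnd2, with C means of 2737 and 5153, were nearer to B in C, whereas Mthfd1, with a C mean of 2163 beside 1518 in D and 8379 in B, was nearer to D.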

How the data were processed

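Total RNA of flow-sorted B-lineage cells was measured on 41 Affymetrix mouse arrays, of which the 5 of fraction D and the 7 of fraction B are compared here. The deposited signal is an intensity on a linear scale that the authors computed with MAS5, per the labels, and every array had the same trimmed mean. The version and annotation build are not given in the sources used here. From these, log2(signal + 32) was computed. Probe sets were named through the platform annotation, and of 45101 probe sets 34958 had 1 gene symbol. The probe set with the highest mean over all arrays stood for its gene, and a gene was tested where it reached its array's median on at least 5 arrays, which left 11953 of 18194 genes. All 41 arrays entered 1 linear model with 7 group means (limma 3.58.1 in R 4.3.3, lmFit, contrasts.fit and eBayes with trend and robust). P-values are limma's, adjusted over all tested genes by Benjamini-Hochberg, and a gene was called at an adjusted p under 0.05. Errors beside differences are standard errors of this fit. The number of arrays limits the precision, and signal on an array has no count behind it.

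Named genes are the 10 largest rises and the 10 largest falls without overlap of arrays, for each described list its largest called rises and falls (at most 3 of each), members of the sorting, pre-B cell receptor, recombination and cycle inhibitor lists, and markers of other cells. Igk-V21, Iglv1, Igk, Fcrl1, Nfkbia, Pax5, Ebf1, Stat5a, Mcl1, Ccnd3, Cdk4 and Egfl7, and names marked so in the text, fall outside this rule and were chosen after their values were seen. The comparison and the lists were chosen with earlier results of these data known. Alternatives changed the pseudocount, the filter, the scaling, the choice of probe sets, the variance model, the weights, the block and the arrays entered. The fit was tested on simulated data over 11953 genes, with D set against B. It recovered 3 of 50 genes changed by 0.5 on the log2 scale, 25 of 50 changed by 1, 49 of 50 changed by 2 and 50 of 50 changed by 3. Of its 145 calls 18 were false, a larger share than the threshold of 0.05 aims for. Only 50 genes of each size were changed there, far fewer than the 3664 called in the data. These shares therefore cannot be carried over to the real comparison. Replicate numbers did not pair the arrays: the deviations of D and B arrays of the same number correlated at -0.070 to 0.039. The highest correlation of any 2 arrays was 0.983, so no array was counted as a repeat. Promoter sequences are from RefSeq.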

Additional observations from a re-analysis of the deposited data

Results flagged for a closer look

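In 23 of 320 groups of arrays (5 in D and 18 in B), 1 array stood far from the rest by the ratio of its gap to the range of its group on the log2 scale. Chance alone flags about 1 in 20 groups. Of the flags, 7 fell on B array 1, 7 on B array 4 and 4 on B array 5, while 2 fell on D array 2, 2 on D array 3 and 1 on D array 5.

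In D, array 2 was lowest for Col1a1 at 430.1, where the next array stood at 1115.4 (ratio 0.809), and for Cd24a at 20292.3, where the next stood at 22961.9 (0.712). D array 5 was lowest for Slc4a1 at 717.9, where the next stood at 1047.2 (0.86). D array 3 was highest for Gzma at 94.2, where the next stood at 8.4 (0.888), and lowest for Cdkn2c at 2010.8, where the next stood at 2552.7 (0.793).

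B array 1 was highest for Cdc25a at 6182.4 with the next at 1571.5 (0.733), and for Rasgrp1 at 1114.9 with the next at 351.0 (0.804). The same array was lowest for Hoxa9 at 184.8 with the next at 830.3 (0.592), for Slc2a3 at 321.9 with the next at 1112.1 (0.599), for Stat2 at 74.8 with the next at 149.4 (0.577), for Ear3 at 529.9 with the next at 1219.0 (0.61) and for Alas2 at 1.7 with the next at 38.6 (0.656).

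B array 4 was highest for Dkc1 at 18621.1 with the next at 9800.5 (0.607), for Hspd1 at 20381.4 with the next at 17122.4 (0.617), for Bcl2l1 at 1328.5 with the next at 503.3 (0.621) and for Ikbkb at 4421.4 with the next at 3274.9 (0.578). It was lowest for Flt3 at 11.7 with the next at 284.0 (0.625), for Id2 at 14.1 with the next at 108.5 (0.603) and for Cd81 at 4210.4 with the next at 6057.6 (0.576). B array 5 was highest for Abhd14a at 16742.2 with the next at 1372.3 (0.764), for Cdk6 at 9977.8 with the next at 7843.7 (0.675) and for Lcn2 at 113.5 with the next at 20.5 (0.701), and lowest for Ccr7 at 5.1 with the next at 103.0 (0.581).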

How the results depend on the processing

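Of 160 named genes, 140 were called, and 109 of these kept direction and call under every alternative run, up to 27 each. The 3664 calls became 6313 with array weights and 6985 when each probe set was tested by itself. The 1896 rises became 1118 with the 75th percentile filter, 699 with median centring, 3208 with array weights and 4310 with each probe set. The 1768 falls became 3516 with median centring, 3105 with array weights and 2675 with each probe set. Beside the main 51.7%, the share of calls that were higher in D was 39.7% with quantile normalization, 16.6% with median centring, 40.5% with the 75th percentile filter, 65.1% with the mean of probe sets and 61.7% with each probe set. Without single arrays, 3007 (without D array 4) to 3643 genes were called, 1530 to 1919 higher and 1477 to 1779 lower, and 2578 of the main calls held in all 12 such fits. The replicate block gave 3734 calls (1932 higher, 1802 lower), and no D array correlated best with the B array of its own number. Signs turned with median centring for Ighm (-0.407), Vpreb3 (-0.068), Cd79b (-0.123) and Ebf1 (-0.029), with quantile normalization for Cd24a (0.036), Cd93 (0.069), Hmgb2 (0.054) and Mki67 (0.168), with the mean of probe sets for Pax5 (-0.158), Cd93 (0.164), Trp53bp1 (0.274) and Ikbkb (0.187), and without B arrays 1 and 4 for Cd79a (0.110). Ighm also turned with the block (-0.032), without D array 5 (-0.042) and without B array 5, 6 or 7 (-0.165 to -0.117). The cause was not tested. Where both fractions lie near the pseudocount, differences are understated.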

Other observations

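Several large changes belong to no list described above and were named after their values were seen. Adam19, a membrane-bound metalloprotease, had signals of 3958 to 5934 in D and 190 to 1786 in B, with a C mean of 1640 (3.18 ± 0.39, adjusted p = 4.79e-08). Cpm, a membrane carboxypeptidase, had 2669 to 3336 in D and 236 to 937 in B (2.87 ± 0.27, adjusted p = 9.7e-11). Cacna1e, a subunit of a voltage-gated calcium channel, had 4816 to 8468 in D and 310 to 2081 in B, and its C mean of 5371 stood near D (2.84 ± 0.48, adjusted p = 1.61e-05). Serinc5, a membrane protein known to restrict retroviruses, had 7941 to 9961 in D and 736 to 3064 in B (2.59 ± 0.28, adjusted p = 1.94e-09). B arrays 1 and 4 were the highest of their fraction for these 4 genes.

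Among the falls, Kcnn4, a calcium-activated potassium channel of lymphocytes, had 484 to 889 in D and 3269 to 7319 in B (-2.89 ± 0.30, adjusted p = 8.99e-10). Srm, spermidine synthase, had 37.5 to 224 in D and 612 to 1224 in B (-2.71 ± 0.30, adjusted p = 3.14e-09). Tiam1, an activator of the GTPase Rac, had 167 to 299 in D and 1080 to 3057 in B (-2.73 ± 0.33, adjusted p = 2.33e-08). Hmga2, a chromatin protein of fetal and stem cells, had 61.2 to 144 in D and 293 to 1421 in B (-2.68 ± 0.53, adjusted p = 0.000143). Fxyd5, a regulator of the sodium pump, had 78.0 to 128.4 in D and 648 to 1800 in B, and its C mean of 1356 lay above the B mean of 1166 (-3.06 ± 0.38, adjusted p = 4.49e-08). These falls were taken among the largest called ones without overlap of arrays, so the separation of their arrays follows from the choice.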
